A study of Mus musculus with 12 samples.

Results

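The cytochrome P450 genes were followed in scraped colon mucosa of 12 mice, each measured on 1 single-colour Agilent array. P450 genes were those whose symbol had the form Cyp, family number, subfamily letter and gene number, and 94 such symbols were in the mouse gene table used for names. On the array 94 probes stood for 70 of these genes, out of 32970 genes in all, and each gene was represented by its brightest probe. Of the 70 genes, 57 had a probe that exceeded background clearly on each of the 3 arrays in 1 or more groups and were tested, among 23747 tested genes.

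Every recipient was a wild-type C57BL/6 mouse carrying transplanted bone marrow, taken from wild-type donors (WT) or from Muc1 knockout donors (KO). Muc1 is a membrane-bound mucin, and in the KO chimeras the recipient's own cells still carried the gene, so a KO label describes the marrow donor and not the colon epithelium. The groups WT_untreated and KO_untreated received no carcinogen. The groups WT_AOMDSS and KO_AOMDSS received 12.5 mg/kg azoxymethane (AOM), a colon carcinogen, and then, starting after 5 days, drinking water with dextran sodium sulfate (DSS), which injures the colon lining. DSS was given at 2% for 4 days with 14 days of water, once more in the same way, and then at 2.5% for 5 days, and the colon was taken 1 day later. Each group held 3 mice, and each colon was processed on its own. The comparisons ask how colitis-associated tumour treatment changed P450 expression with either marrow, and whether the marrow's Muc1 genotype mattered. In a scraped mucosa, fewer cells of a type and less RNA per cell cannot be told apart.

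P450 enzymes are haem proteins that insert oxygen into small molecules, with electrons passed on by P450 reductase (Por) or, in mitochondria, by adrenodoxin. Members of families 2 and 3 oxidise drugs, dietary compounds and fatty acids, family 4 mainly hydroxylates fatty acids and eicosanoids, and others build or clear steroids, bile acids, vitamin D and retinoic acid. The liver is the main site of many of them, and the gut epithelium carries its own set. Names end in the subfamily letter and a number, so Cyp2c29 and Cyp2c40 are close relatives, often lying side by side on a chromosome.

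The Cyp2c genes carried the largest group of falls described below, and 6 of their promoter stretches are shown because neighbours in this cluster behaved differently. In the RefSeq gene order of chromosome 19, Cyp2c55 comes first of the 15 Cyp2c genes, Cyp2c66 is at place 3, Cyp2c29 and Cyp2c39 follow at places 4 and 5, Cyp2c40 lies at place 9 and Cyp2c70 at place 14. The stretches are the 120 bases before the annotated transcript start (RefSeq, build GRCm38.p6), written 5′ to 3′ on the gene's strand. They lie at chr19:39286965-39287084 for Cyp2c29 (plus strand), chr19:39510702-39510821 for Cyp2c39 (plus), chr19:39812815-39812934 for Cyp2c40 (minus), chr19:39006899-39007018 for Cyp2c55 (plus), chr19:39113778-39113897 for Cyp2c66 (plus) and chr19:40187287-40187406 for Cyp2c70 (minus). Cyp2c39 has another start in the table, not shown. Capitals mark CAAAGTC, a core shared by many binding sites of the liver and gut factor HNF4A.
Cyp2c29: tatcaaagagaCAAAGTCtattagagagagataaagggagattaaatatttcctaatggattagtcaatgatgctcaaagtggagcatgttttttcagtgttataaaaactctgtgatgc
Cyp2c39: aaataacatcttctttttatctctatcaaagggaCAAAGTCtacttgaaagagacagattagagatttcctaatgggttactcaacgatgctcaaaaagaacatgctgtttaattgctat
Cyp2c40: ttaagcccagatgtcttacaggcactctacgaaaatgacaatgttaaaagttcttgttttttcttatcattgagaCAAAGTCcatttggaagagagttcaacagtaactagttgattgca
Cyp2c55: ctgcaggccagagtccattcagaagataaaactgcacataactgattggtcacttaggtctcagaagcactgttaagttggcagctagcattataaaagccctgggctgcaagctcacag
Cyp2c66: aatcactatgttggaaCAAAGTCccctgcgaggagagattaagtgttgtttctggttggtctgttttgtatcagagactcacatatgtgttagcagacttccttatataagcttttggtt
Cyp2c70: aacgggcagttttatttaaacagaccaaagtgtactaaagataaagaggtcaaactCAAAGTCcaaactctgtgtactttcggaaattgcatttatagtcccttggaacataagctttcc

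CAAAGTC, on either strand within 250 bases before the start, was in 15 of the 53 P450 genes that have a promoter in the RefSeq table, and in 3.84% of all 32851 promoters there. It was 1 of 11 short motifs searched with the results already known. The longer CAAAGTCCA, which contains it, was in 5 genes (Cyp2c40, Cyp2c70, Cyp3a11, Cyp3a16 and Cyp8b1) against 0.384% of all promoters. Of the 8 Cyp2c genes with a promoter, 6 had CAAAGTC, and relatives share such letters through common descent, so they are not separate observations. By response, the motif was in 7 of 21 genes that fell with treatment and in 7 of 20 tested genes that were not called. Among the stretches shown, it begins 109 bases before the start in Cyp2c29, 45 bases before it in Cyp2c40, and 104 and 64 bases before it in Cyp2c66 and Cyp2c70, neither of which was called, while Cyp2c55 has none. GCGTG, the core bound by the aryl hydrocarbon receptor, was in 11 P450 genes, Cyp1a1 and Cyp1b1 among them, against 28.2% of all promoters. TTANGTAA, the core of sites for Dbp and its relatives, was in the promoter of Cyp2c38 alone, against 2.06% of all promoters. Such matches describe letters and do not show a bound factor.

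The arrays were not equal. The 75th percentile of the signal, to which each array was scaled, was 153 units on WT_AOMDSS 3 and 332 to 768 on the other arrays, and 58.4% to 78.7% of probes were well above background. Slide 1 held WT_untreated 1 to 3 and KO_untreated 1, WT_AOMDSS 3, KO_AOMDSS 3 and KO_untreated 2 and 3 were on slide 2, and the remaining 4 treated arrays were on slide 3. Those 4 were scanned on another day than the rest and had 583 to 865 spots marked as outliers, against 48 to 185 on the other arrays. No slide held both WT marrow groups, so treatment and slide are partly tied, and each treatment result was also fitted with slide as a block. WT_untreated 2 stood apart in fat cell genes: the adiponectin gene Adipoq was at 2.79 there and between -6.02 and -1.42 on the other arrays. KO_untreated 2 stood apart in the liver genes Alb (albumin), at -0.26 there and between -5.80 and -3.08 elsewhere, and Fgb (fibrinogen), at -2.27. The liver genes Apoa2 and Ttr set it apart little or not at all. Apoa2 was at -2.31 there and -2.75 on KO_untreated 3, and Ttr at -1.53 there and -0.59 on WT_untreated 3. WT_AOMDSS 2 stood apart in the mean of the 5-gene smooth muscle list, at 3.16 there and between -2.62 and 0.69 on the others. Within that list, Acta2 and Actg2 were higher on KO_AOMDSS 2. Epithelial genes were well above background on every array, with Krt8 between 8.67 and 10.18. Values are log2 signals relative to the array's 75th percentile, and because probes differ in brightness they are compared between arrays and not between genes. Closely related P450 genes can also share a probe's signal, which was not tested.

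Of the 70 P450 genes, 37 were well above background on all 12 arrays, 28 on some and 5 on none. Those never above background were Cyp1b1 (a dioxin-inducible enzyme of many tissues outside the liver), Cyp2a12, Cyp2c38, Cyp4f15 and Cyp8b1, the sterol 12-alpha-hydroxylase of bile acid synthesis. The number above background on all 3 arrays of a group was 54 in WT_untreated, 45 in KO_untreated, 46 in WT_AOMDSS and 42 in KO_AOMDSS. These counts have no all-gene share beside them. The share of all probes above background was lowest on KO_untreated 2, at 58.4%, against 64.6% to 78.7% on the other arrays. Among the 13 genes that were not tested, Cyp1a2 was above background on 8 arrays, Cyp11a1 on 6, Cyp2e1, Cyp3a44 and Cyp4a10 on 4 each, Cyp1a1 on 2 and Cyp2j5 and Cyp3a25 on 1 each. By subfamily, all 6 Cyp2d genes and all 5 Cyp2b genes were tested, as were 9 of 10 Cyp2c, 5 of 6 Cyp4f, 4 of 5 Cyp2j, 3 of 5 Cyp3a, and 2 of 3 each of Cyp2a and Cyp4a, while neither Cyp1a gene was.

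**Figure D1:**
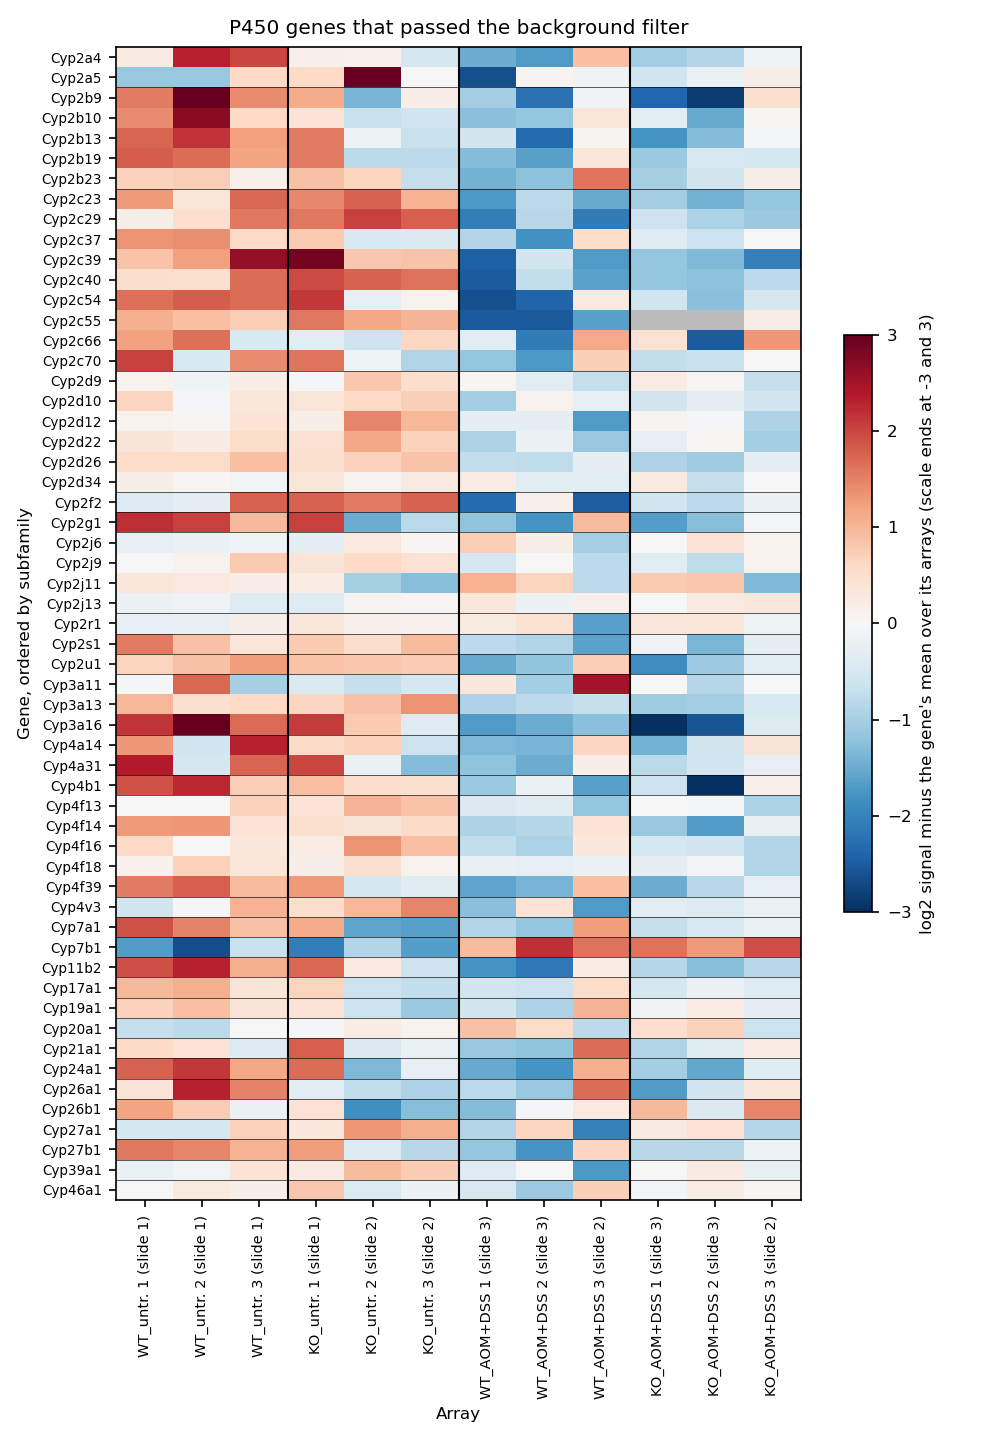
Log2 signal of the 57 tested P450 genes (rows, by subfamily) on the 12 arrays (columns, with slide), each minus the gene's own mean, with missing spots in grey. Treated arrays are mostly blue for Cyp2c, Cyp2d and Cyp4f genes and red for Cyp7b1, while several Cyp2b, Cyp4a and steroid genes are red on slide 1 and on WT_AOMDSS 3.

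Called P450 genes were far more often lower than higher in AOM+DSS mice, although treatment is partly tied to slide. Averaged over both marrows, 28 of the 57 tested genes were called at an adjusted p below 0.05 (limma, Benjamini-Hochberg over all tested genes), 27 lower and 1 higher. Over all genes 21% were called, 13.5% lower and 7.55% higher. The median difference was -1.15 for the P450 genes that passed the background filter and -0.19 over all tested genes. Without that filter it was -1.15 over all 70 P450 genes, against -0.32 over all genes on the array. With WT marrow 18 genes fell and 1 rose, where 10.2% of all genes fell and 3.61% rose. The all-gene median depended on the scaling, at -0.06 with quantile normalization, -0.02 with normexp correction and 0.46 with slide as a block, where the median of the tested P450 genes was -1.01, -0.45 and -0.17. With KO marrow 7 fell and 1 rose, where 1.31% of all genes fell and 1.85% rose. Of the 27 genes that fell, 6 (Cyp11b2, Cyp2b9, Cyp2b13, Cyp2c54, Cyp3a16 and Cyp4b1) passed the background filter through untreated groups alone, where they were high, and the fitted size of such a fall rests on treated signals that were partly at background. The groups did not overlap for 27 genes with WT marrow (33.1% of all genes), for 24 with KO marrow (23.6%) and for 13 when all 6 treated mice were set against all 6 untreated mice (8.18%).

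Slide changed these counts. With slide as a block the averaged comparison called 12 P450 genes, all lower (2.09% of all genes lower, 4.11% higher), and 9 of the 28 calls remained. Of the other calls, 5 took the opposite sign. With KO marrow, for which slide 2 held both groups, the block called 15 genes, 13 lower (2.6% of all genes) and 2 higher (4.66%), and all 8 calls remained. With WT marrow it called 1 gene, Cyp2d12 (0.0674% of all genes lower, 0.467% higher), and none of the 19 calls remained, and there the slide effect can be separated only through the KO marrow arrays. Within slide 2 alone and with KO marrow, 1 treated against 2 untreated arrays, 32 of the 57 genes were lower and 25 higher, at a median of -0.26. No all-gene split is given for this contrast, so the P450 split has no background beside it. The single arrays mattered as well: the count with WT marrow was 7 without WT_AOMDSS 1, 8 without WT_untreated 2, 10 to 12 without WT_untreated 1 or 3, KO_untreated 2, WT_AOMDSS 2 or KO_AOMDSS 1, and 33 without WT_AOMDSS 3. With KO marrow it was 4 without KO_untreated 3, 5 without KO_AOMDSS 1 and 14 without WT_AOMDSS 3, and averaged it was 18 without WT_untreated 2. All counts with arrays left out are given without all-gene shares, so they describe only how the P450 calls varied. Leaving out both WT_untreated 2 and KO_untreated 2, a choice made after seeing the data, gave 15 calls averaged, 5 with WT and 4 with KO marrow. The 7 averaged falls of Cyp2c23, Cyp2c29, Cyp2c40, Cyp2c55, Cyp2d22, Cyp2d26 and Cyp3a13 remained called under the slide block, without any 1 array that left a value, without both of those arrays and with another background correction.

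**Figure D2:**
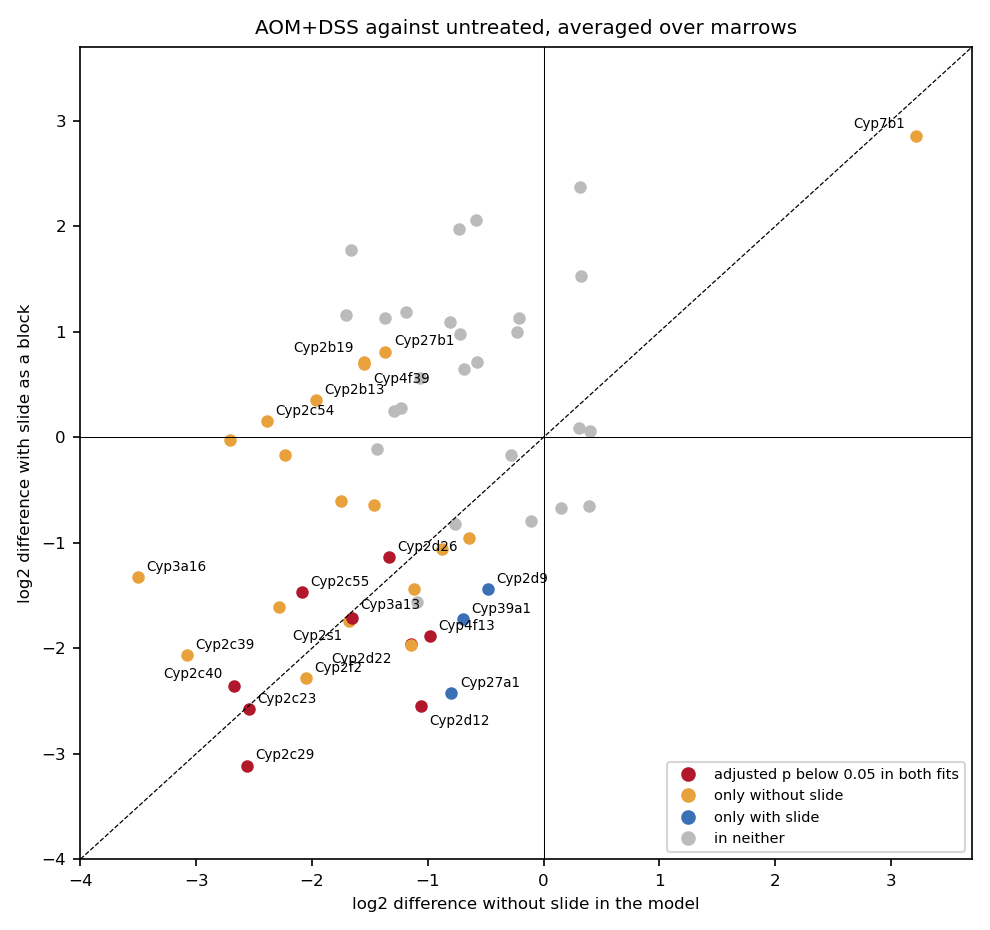
Treatment difference averaged over marrows for the 57 tested P450 genes, without slide in the model (x axis) and under the slide block (y axis), both in log2, with equality dashed. Of the 28 genes called without slide 9 remained called with it, while Cyp27b1, Cyp2b13, Cyp2b19, Cyp2c54 and Cyp4f39 cross above 0 once slide is included.

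The Cyp2c subfamily, which oxidises drugs and turns arachidonic acid into epoxides in many tissues, held the largest number of called genes. Averaged over marrows 6 of 9 tested Cyp2c genes were called lower, with a median difference of -2.39 over the 9. Cyp2c29 was at 1.90, 2.23 and 3.32 in WT_untreated, 3.32, 3.78 and 3.54 in KO_untreated, -0.33, 0.90 and -0.36 in WT_AOMDSS, and 1.11, 0.78 and 0.62 in KO_AOMDSS. Every treated mouse lay below every untreated one, and the fall was 2.56 ± 0.28 on the log2 scale (SE, 5.92-fold, adjusted p 1.15e-04). Cyp2c40, whose product hydroxylates arachidonic acid in the gut, was at 4.76, 4.72 and 5.92, then 6.19, 6.00 and 5.87 in the untreated groups, and at 1.75, 3.50 and 2.62, then 3.07, 3.00 and 3.46 in the treated ones. Again the treated and untreated mice did not overlap. It fell by 2.67 ± 0.29 (6.38-fold, adjusted p 1.05e-04), and its other probe by 2.81. Within slide 2 with KO marrow, 1 treated against 2 untreated arrays, the difference was -3.04 for Cyp2c29 and -2.47 for Cyp2c40.

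Cyp2c55, a Cyp2c enzyme best known from the colon, was at 5.90, 5.73 and 5.57 in WT_untreated, 6.40, 5.99 and 5.84 in KO_untreated and 2.31, 2.30 and 3.20 in WT_AOMDSS. The scanner software marked its spots on KO_AOMDSS 1 and 2 as outliers, so KO_AOMDSS 3, at 5.03, was the only value of its group in the fit. With WT marrow it fell by 3.13 ± 0.28 (8.75-fold, adjusted p 6.3e-04, or 0.069 under the slide block), the treated mice lying far below the untreated ones. With KO marrow the difference was -1.05 ± 0.40 (adjusted p 0.244). With the marked spots kept, a choice made after seeing the data, KO_AOMDSS 1 and 2 were at 4.74 and 2.45, so the group spanned 2.45 to 5.03, and 1 of its mice lay near the WT_AOMDSS level. The KO marrow comparison was then still not called (adjusted p 0.062).

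Cyp2c23, an arachidonic acid epoxygenase, was dimmer and as uniform. It was at -1.81, -2.72 and -1.36 in WT_untreated, -1.66, -1.33 and -2.05 in KO_untreated, -4.82, -3.88 and -4.59 in WT_AOMDSS and -4.14, -4.51 and -4.25 in KO_AOMDSS. No treated mouse reached an untreated one, and the averaged fall was 2.54 ± 0.33 (5.83-fold, adjusted p 3.42e-04, or 2.58 and 0.035 under the slide block). With normexp background correction, which compresses dim probes, the fall was 0.89. Cyp2c39, which hydroxylates retinoic acid, fell by 3.08 ± 0.46 (8.47-fold, adjusted p 9.74e-04), from -0.60 to 1.46 in untreated to -3.85 to -1.95 in treated mice, also without overlap, and by 2.06 under the slide block (adjusted p 0.104). Its WT marrow call ended without WT_AOMDSS 1 (adjusted p 0.064), and its KO marrow call without any KO marrow array but KO_untreated 2 (adjusted p up to 0.082). The KO marrow call of Cyp2c23 ended without KO_untreated 2 (adjusted p 0.056).

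The other Cyp2c genes differed from these. Cyp2c54 fell by 2.39 ± 0.62 (adjusted p 0.020, a call that ended without WT_untreated 2 or WT_AOMDSS 1, with adjusted p up to 0.051). It was 0.15 higher under the slide block and was not well above background on any treated array. With treated signals raised to each array's lowest signal well above background, the fall without slide in the model was 2.22-fold. This is not a firm minimum, because untreated values entered as measured and Cyp2c54 was well above background on only 2 of 3 KO_untreated arrays. Cyp2c37 was called with WT marrow alone, where it fell by 1.82 ± 0.56 (adjusted p 0.0475), and it was 0.22 higher under the slide block. That call ended without any of 10 arrays, all but KO_untreated 1 and WT_AOMDSS 3. Cyp2c70, a bile acid hydroxylase in mouse liver, was at -1.19 ± 0.55 (adjusted p 0.132) and Cyp2c66 at -0.69 ± 0.67 (adjusted p 0.470), neither past the threshold. For Cyp2c66, which lies between Cyp2c55 and Cyp2c29, values ran from 0.69 to 2.97 in untreated mice and from -1.18 to 2.63 in treated ones, overlapping widely.

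**Figure D3:**
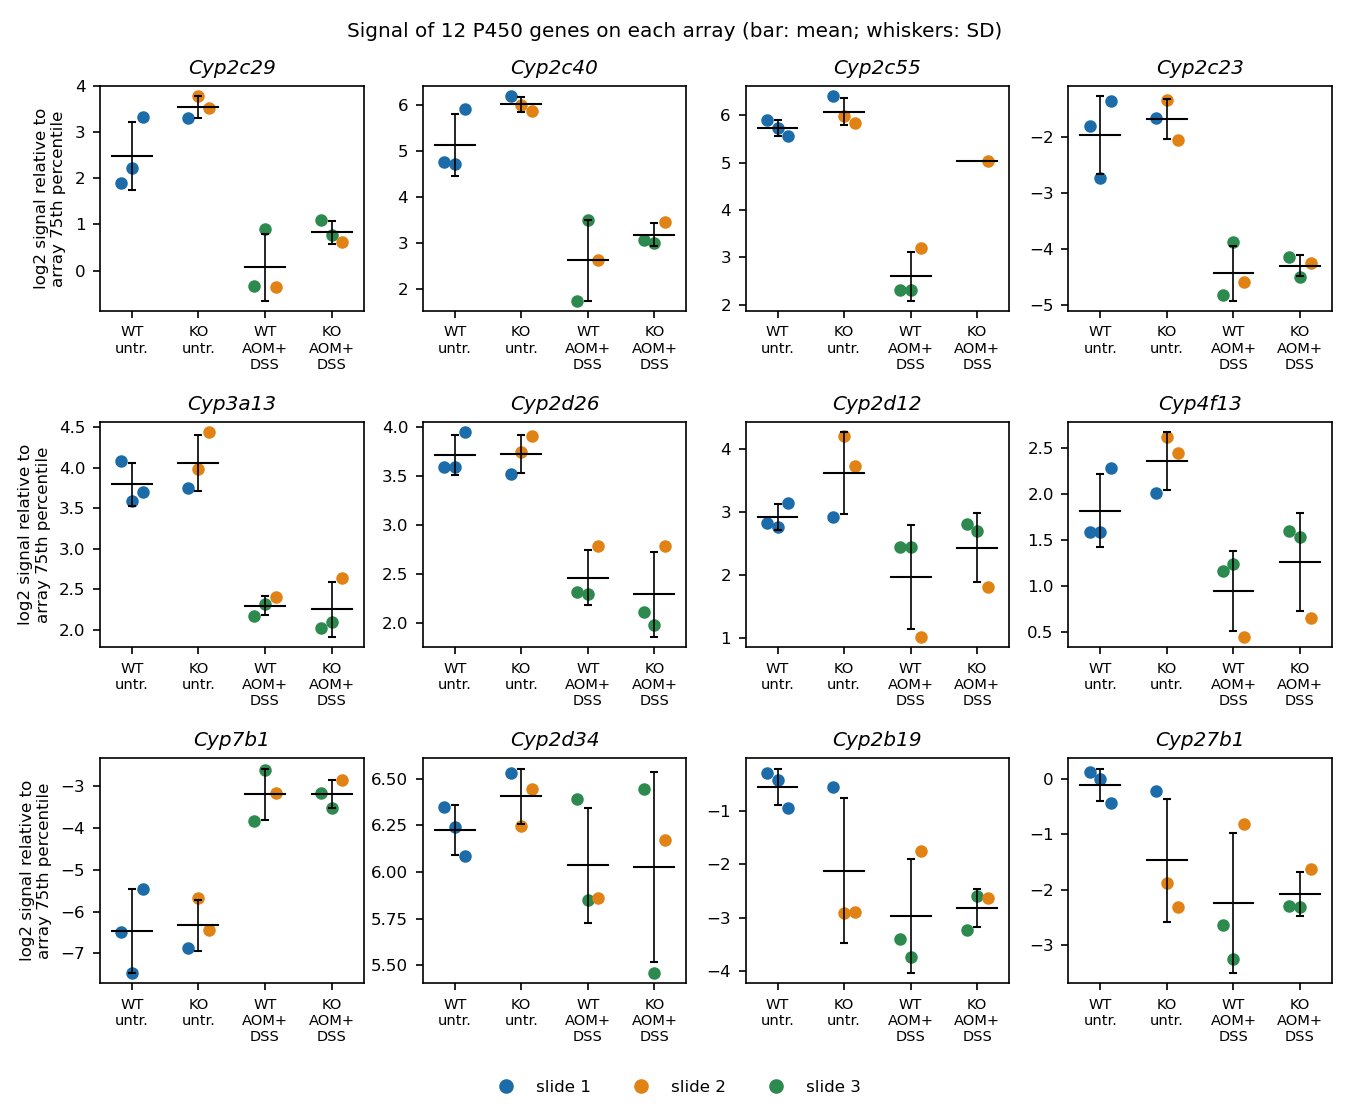
Log2 signal of 12 P450 genes on each array, by group and coloured by slide, with the group mean as a bar and the SD as whiskers (3 mice, except 1 value for Cyp2c55 in KO_AOMDSS). In Cyp2c29, Cyp2c40, Cyp2c23, Cyp3a13 and Cyp2d26 all treated points lie below all untreated points, whereas in Cyp2b19 and Cyp27b1 the slide 1 points are high and the untreated slide 2 points lie among the treated ones.

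In the Cyp3a subfamily, the broad drug and steroid oxidases, 2 of 3 tested genes fell. Cyp3a13, a Cyp3a enzyme of the gut epithelium, was at 4.09, 3.59 and 3.71 in WT_untreated and 3.76, 3.99 and 4.44 in KO_untreated. It was at 2.17, 2.32 and 2.40 in WT_AOMDSS and 2.02, 2.09 and 2.64 in KO_AOMDSS. No treated mouse overlapped an untreated one, and the averaged fall was 1.65 ± 0.18 (3.15-fold, adjusted p 1.05e-04, or 1.71 and 0.010 under the slide block). It fell with either marrow, by 1.50 ± 0.25 (adjusted p 0.0061) and 1.81 ± 0.25 (adjusted p 0.0020). Cyp3a16, known from fetal and young mouse liver, fell by 3.50 ± 0.62 (adjusted p 0.0029), but by 1.33 under the slide block (adjusted p 0.374). It was above background on all untreated and 3 treated arrays, and its highest value, -0.73, was that of WT_untreated 2. Cyp3a11, the main inducible Cyp3a of liver, was at 0.32 ± 0.56 (adjusted p 0.705), with its highest value of 0.48 on WT_AOMDSS 3.

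The Cyp2d genes, relatives of the human drug oxidase CYP2D6, fell by less. Of 6 genes 4 were called, with a median of -0.97 over the 6. Cyp2d26 was at 3.60, 3.60 and 3.95 in WT_untreated and 3.52, 3.74 and 3.91 in KO_untreated. It was at 2.31, 2.30 and 2.79 in WT_AOMDSS and 2.12, 1.98 and 2.79 in KO_AOMDSS. The groups did not overlap, and it fell by 1.34 ± 0.18 (2.53-fold, adjusted p 5.03e-04, or 1.14 and 0.033 under the slide block). Cyp2d22 fell by 1.15 ± 0.25 (adjusted p 0.0084), or by 1.96 under the slide block (adjusted p 0.015), also without overlap between treated (-1.23 to -0.04) and untreated mice (0.14 to 1.05). Cyp2d12 fell by 1.06 ± 0.30 (adjusted p 0.027), a call that ended without any 1 of WT_untreated 1, 2 or 3, KO_untreated 2 or KO_AOMDSS 3 (adjusted p up to 0.060), while under the slide block it fell by 2.55 (adjusted p 0.0015). Cyp2d10 fell by 0.87 ± 0.20 (adjusted p 0.012, or 0.125 under the slide block), and its dimmer probe by 0.40. Cyp2d9, a testosterone hydroxylase of male liver, was at -0.48 ± 0.22 (adjusted p 0.119), and at -1.44 under the slide block (adjusted p 0.016). Cyp2d34 lay between 5.46 and 6.53 on all arrays, with a difference of -0.29 ± 0.19 (adjusted p 0.283).

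Among the single-gene subfamilies of family 2, Cyp2s1, an enzyme of epithelia that line the gut and airways, was at 6.70, 6.00 and 5.48, then 5.92, 5.66 and 6.08 in untreated mice. It was at 4.34, 4.23 and 3.52, then 5.02, 3.75 and 4.87 in treated mice, all below the untreated ones. It fell by 1.68 ± 0.27 (3.21-fold, adjusted p 0.0014, or 0.078 under the slide block). Cyp2f2, best known from the club cells of the airway, fell by 2.06 ± 0.46 (adjusted p 0.010, or 0.148 under the slide block). Its values ran from 1.48 to 3.66 in untreated and from -0.58 to 2.04 in treated mice, and WT_AOMDSS 2 and KO_AOMDSS 3, at 2.04 and 1.71, lay above WT_untreated 1 and 2. Cyp2u1, a fatty acid hydroxylase, fell by 1.75 ± 0.44 (adjusted p 0.017), or by 0.61 under the slide block (adjusted p 0.481). Cyp2r1, the vitamin D 25-hydroxylase, is given with the vitamin D genes. Cyp2g1, an enzyme of the olfactory lining, was at -1.66 ± 0.67 (adjusted p 0.090).

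The Cyp2b and Cyp2a genes, some of them inducible in liver through the receptor CAR, moved with slide and with single arrays. Of 5 Cyp2b genes 3 were called lower, Cyp2b9 by 2.71 ± 0.82 (adjusted p 0.036), Cyp2b13 by 1.97 ± 0.54 (adjusted p 0.025) and Cyp2b19 by 1.55 ± 0.46 (adjusted p 0.032). Cyp2b9 passed the background filter through WT_untreated alone and was above background on 1 of the 6 treated arrays, so the size of its fall is poorly fixed, and its other probe was at -1.23. Under the slide block Cyp2b9 was at -0.02, and Cyp2b13 and Cyp2b19 were 0.35 and 0.71 higher. Cyp2b19, known as a skin epoxygenase, was at -0.29, -0.43 and -0.94 in WT_untreated and at -0.56 in KO_untreated 1, all on slide 1, and at -2.91 and -2.89 in KO_untreated 2 and 3 on slide 2. Those last values lay among the treated ones (-3.74 to -1.74). Cyp2b9 was at -0.39 on WT_untreated 2 against -8.46 to -4.04 on the other arrays, and its call ended without that array (adjusted p up to 0.087 over 7 arrays that end it when left out). The calls of Cyp2b13 and Cyp2b19 ended without 5 and 7 of the arrays, among them WT_untreated 1 and 2 and KO_untreated 1. Neither tested Cyp2a gene was called: Cyp2a4, a steroid 15-alpha-hydroxylase, was at -1.44 ± 0.51 (adjusted p 0.0585), and Cyp2a5, which oxidises coumarin and nicotine, at -1.09 ± 0.78 (adjusted p 0.325).

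The Cyp2j genes, epoxygenases of heart, gut and kidney, were not called in any direction. Cyp2j6 lay at 0.92, 0.98 and 1.03, then 0.88, 1.46 and 1.23 in untreated mice. In treated mice it was at 1.89, 1.33 and 0.17, then 1.15, 1.60 and 1.27. The groups overlapped, and the difference was 0.15 ± 0.26 (95% interval -0.40 to 0.70). Cyp2j13 was at 0.31 ± 0.20 by its brightest probe and at -0.55 and -1.06 by its other probes, which therefore disagree in sign. Cyp2j11 was at 0.40 ± 0.46 and Cyp2j9 at -0.77 ± 0.29 (adjusted p 0.076).

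**Figure D4:**
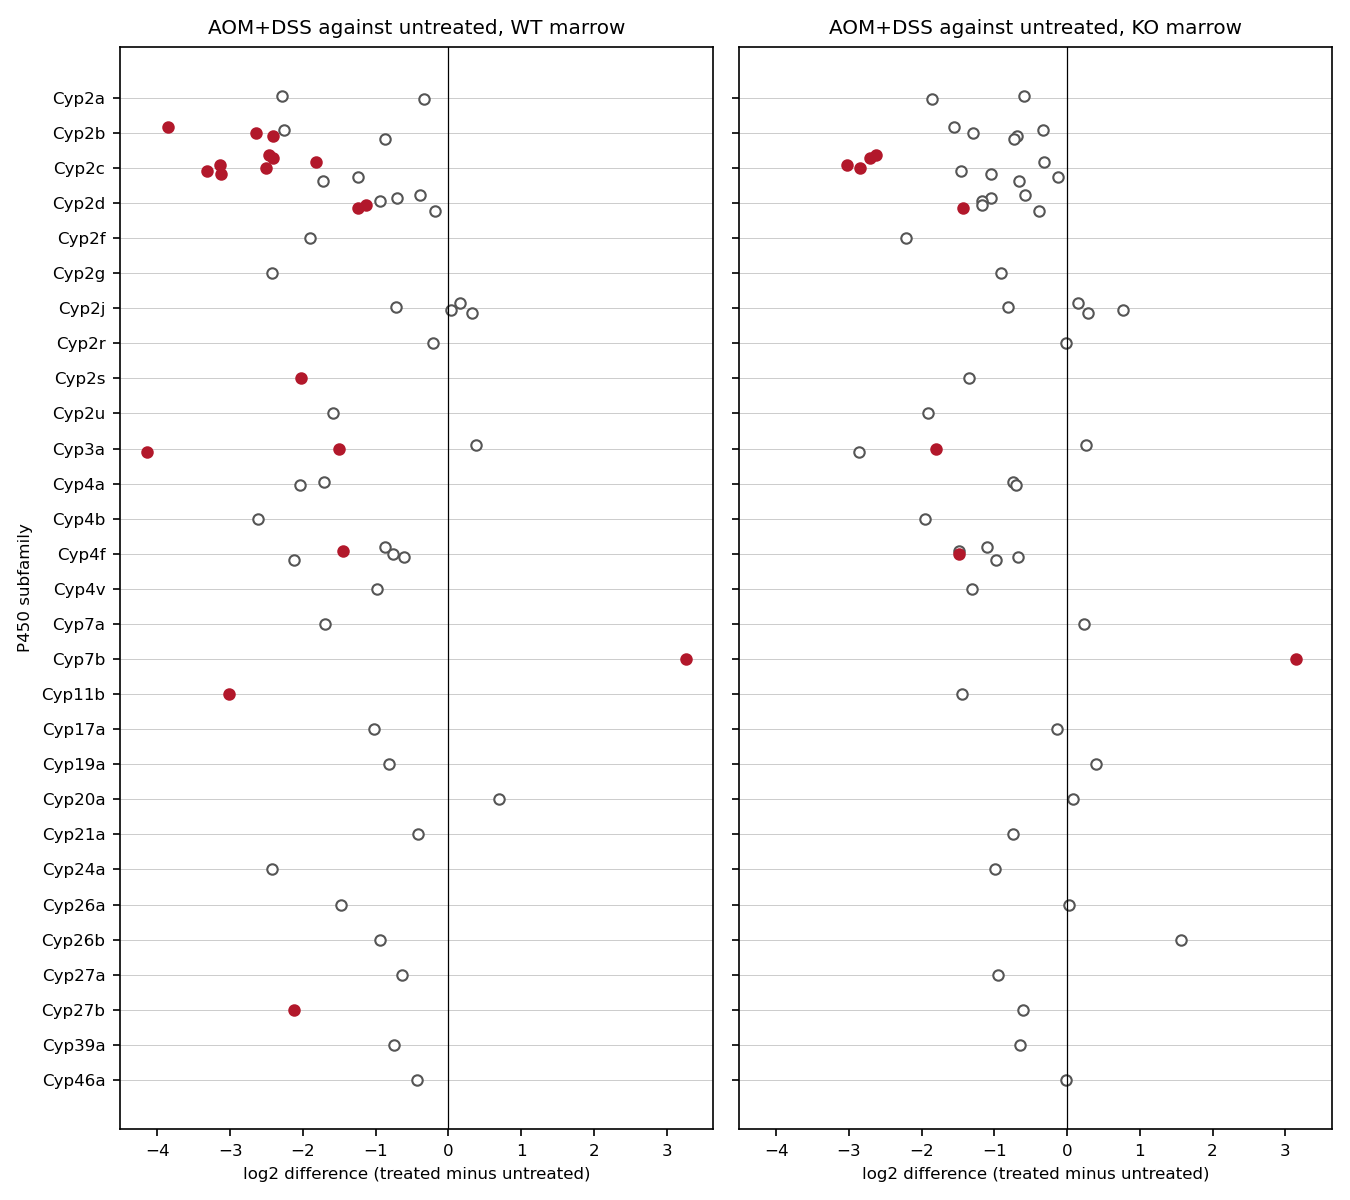
Treated minus untreated log2 difference of each tested P450 gene, by subfamily (rows), with WT marrow (left) and KO marrow (right), filled red at an adjusted p below 0.05. All Cyp2c, Cyp2d and Cyp4f points lie left of 0 in both panels, Cyp2j points lie on both sides of it, and Cyp7b1 is the 1 filled point to the right.

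In family 4 all 5 tested Cyp4f genes, which hydroxylate leukotrienes and long fatty acids, were called lower, with differences from -1.55 to -0.65. Cyp4f13 fell by 0.98 ± 0.23 (1.98-fold, adjusted p 0.013) and by 1.88 under the slide block (adjusted p 0.0090). It was at 1.59, 1.59 and 2.28, then 2.02, 2.62 and 2.44 in untreated, and 1.16, 1.24 and 0.45, then 1.60, 1.53 and 0.65 in treated mice, where KO_AOMDSS 1 reached the lowest untreated values. Cyp4f14, a leukotriene B4 hydroxylase, was at 6.02, 6.04 and 5.16, then 5.23, 5.13 and 5.31 in untreated mice. In treated mice it was at 3.82, 3.90 and 5.15, then 3.62, 3.08 and 4.53, where WT_AOMDSS 3 matched the lowest untreated mice. It fell by 1.47 ± 0.29 (adjusted p 0.0055), or by 0.64 under the slide block (adjusted p 0.263). Cyp4f16 fell by 1.12 ± 0.25 (adjusted p 0.011), by 1.50 by its other probe, and with KO marrow by 1.49 ± 0.36 (adjusted p 0.041, or 0.045 under the slide block). Averaged under the slide block its adjusted p was 0.065. Cyp4f18, a leukotriene hydroxylase of neutrophils and other myeloid cells, fell by 0.65 ± 0.19 (adjusted p 0.030), a call lost without any of 6 arrays (WT_untreated 2, KO_untreated 1 or 2, WT_AOMDSS 1 or 2, KO_AOMDSS 1) and under the slide block (adjusted p 0.109). Cyp4f39, an acyl-ceramide enzyme of skin, fell by 1.55 ± 0.49 (adjusted p 0.042) but was 0.70 higher under the slide block, and 8 arrays each ended its call when left out, WT_untreated 1 to 3 among them.

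Cyp4b1, which activates furans in lung and gut, fell by 2.29 ± 0.59 (adjusted p 0.019), or by 1.61 under the slide block (adjusted p 0.359). Treated mice (-8.16 to -4.56) lay below untreated ones (-4.23 to -2.44) without overlap, yet the call ended without WT_untreated 2 (adjusted p 0.052). Cyp4v3, a fatty acid hydroxylase, fell by 1.15 ± 0.38 (adjusted p 0.0496), right at the threshold, and any of 11 arrays left out, all but WT_AOMDSS 2, ended the call. Cyp4a14 and Cyp4a31, fatty acid omega-hydroxylases under the receptor PPAR alpha in liver, were at -1.23 ± 0.58 (adjusted p 0.137) and -1.37 ± 0.59 (adjusted p 0.109).

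Cyp7b1, the oxysterol 7-alpha-hydroxylase that clears hydroxylated cholesterol, was the single P450 gene that rose. It was at -6.48, -7.46 and -5.45 in WT_untreated and -6.87, -5.68 and -6.44 in KO_untreated, well above background on 1 array of each group. It was at -3.83, -2.60 and -3.15 in WT_AOMDSS and -3.15, -3.52 and -2.85 in KO_AOMDSS, above background on all 6. Every treated mouse lay above every untreated one. Cyp7b1 passed the background filter through the treated groups alone, which chose it for being high there. The fitted rise was 3.21 ± 0.44 (9.27-fold, adjusted p 5.89e-04), and 3.27 ± 0.63 and 3.15 ± 0.63 with WT and KO marrow, set against untreated levels that were at background on 4 of 6 arrays. Under the slide block it was 2.86 averaged (adjusted p 0.054) and 3.07 with KO marrow (adjusted p 0.032), and within slide 2 with KO marrow, 1 treated against 2 untreated arrays, it was 3.21. With normexp correction it was 0.64 (adjusted p 0.0019), so its size depends on how dim signals are treated. With WT marrow the call ended without WT_untreated 2, and with KO marrow without KO_untreated 3, KO_AOMDSS 1 or KO_AOMDSS 3.

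The other sterol and bile acid genes were not called, so 1 of the 5 tested of 6 was. Cyp27a1, the mitochondrial sterol 27-hydroxylase, ran from -2.96 to -1.13 in untreated mice and from -4.47 to -1.80 in treated mice, lowest on WT_AOMDSS 3. The groups overlapped, and the difference was -0.80 ± 0.45 (adjusted p 0.214), but -2.43 under the slide block (adjusted p 0.049). Cyp39a1, a further oxysterol 7-alpha-hydroxylase, showed the same shift, from -0.70 ± 0.28 (adjusted p 0.090) to -1.72 under the slide block (adjusted p 0.035), while its other probe was at -0.23. Cyp46a1, the cholesterol 24-hydroxylase of brain, was at -0.23 ± 0.33 (adjusted p 0.640). Cyp7a1, the rate-limiting enzyme of bile acid synthesis in liver, was at -0.73 ± 0.59 (adjusted p 0.376), at -2.01 by its other probe, and at 1.98 under the slide block (adjusted p 0.098), with signals from -4.17 to -3.14 on slide 1 and -3.80 on WT_AOMDSS 3 and lower values elsewhere.

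Of the 3 vitamin D genes 1 was called. Cyp27b1, which makes the active hormone, was at 0.11, -0.01 and -0.44 in WT_untreated and -0.23, -1.88 and -2.31 in KO_untreated. It was at -2.64, -3.25 and -0.83 in WT_AOMDSS and -2.30, -2.30 and -1.63 in KO_AOMDSS. The 4 high values were those of slide 1, and KO_untreated 2 and 3 lay among the treated mice. The fall of 1.37 ± 0.44 (adjusted p 0.044) became a difference of 0.81 under the slide block (adjusted p 0.296), and 9 arrays each ended the call when left out, all of slide 1 among them. Cyp24a1, which degrades the hormone, was at -1.71 ± 0.63 (adjusted p 0.068), and at 1.16 under the slide block. Cyp2r1 was at -0.11 ± 0.37 (adjusted p 0.851).

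Of the 5 steroid synthesis genes 4 were tested and 1 was called. Cyp11b2, the aldosterone synthase of the adrenal, fell by 2.23 ± 0.61 (adjusted p 0.024) and was not well above background on any treated array. With treated signals raised to each array's lowest signal well above background, the fall without slide in the model was 1.31-fold. Untreated values entered as measured, with Cyp11b2 well above background on 1 KO_untreated array, so 1.31-fold is not a firm minimum. Under the slide block Cyp11b2 was at -0.17 (adjusted p 0.907), and leaving out any of WT_untreated 1 or 2, WT_AOMDSS 1 or KO_AOMDSS 1 or 2 ended the call (adjusted p up to 0.068). Cyp17a1, the 17-alpha-hydroxylase, was above background on all 12 arrays, at 1.16, 1.28 and 0.57 in WT_untreated and 0.87 in KO_untreated 1. The other 8 arrays lay between -0.55 and 0.75, the highest of them WT_AOMDSS 3, and the difference was -0.58 ± 0.29 (adjusted p 0.167). Cyp19a1 (aromatase) was at -0.21 ± 0.44 and Cyp21a1 (the steroid 21-hydroxylase) at -0.58 ± 0.59, with adjusted p 0.752 and 0.490.

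Neither retinoic acid hydroxylase was called. Cyp26b1 was at -2.87, -3.28 and -4.22 in WT_untreated and -3.60, -5.89 and -5.32 in KO_untreated. It was at -5.34, -4.10 and -3.74 in WT_AOMDSS and -3.07, -4.48 and -2.58 in KO_AOMDSS. With KO marrow the difference was 1.56 ± 0.73 (adjusted p 0.349), and 2.96 under the slide block (adjusted p 0.029). With WT marrow it was -0.94 ± 0.73 (adjusted p 0.391). Cyp26a1 was at -0.72 ± 0.60 (adjusted p 0.393). The Cyp1 genes, classic targets of the aryl hydrocarbon receptor, were not tested. Cyp1a1 was above background on 1 array of WT_untreated and 1 of WT_AOMDSS, with its highest value, -2.91, on WT_untreated 2 and the other 11 arrays between -8.93 and -6.02. Cyp1a2 ran from -7.10 to -3.83.

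Several P450 genes were high on 1 array that was also high in some genes of another tissue. On WT_untreated 2, with Adipoq at 2.79 and the fat droplet gene Plin1 at 0.75 (-7.46 to -3.62 elsewhere), Cyp2e1, the ethanol-oxidising enzyme of liver and fat, was at -0.91, Cyp3a44 at -0.40 and Cyp3a25 at -2.19. On the other arrays Cyp3a25 lay between -9.19 and -6.39 and Cyp3a44 between -9.44 and -4.44. On WT_AOMDSS 2, where Adipoq was at -1.42 and the smooth muscle genes Myh11, Cnn1 and Des at 3.08, 4.68 and 0.91, Cyp2e1 was at -2.72. The smooth muscle genes Acta2 and Actg2 did not peak there, at 4.17 and 2.98 against 4.47 and 3.47 on KO_AOMDSS 2. On KO_untreated 2, with Alb at -0.26 and the fibrinogen gene Fgb at -2.27 (-8.24 to -4.63 elsewhere), Cyp2a5 was at -1.95 and Cyp2e1 at -3.87. There the liver gene Ttr, at -1.53, was below its -0.59 on WT_untreated 3. Cyp2a5 lay between -8.91 and -5.68 on the other arrays, and Cyp2e1 between -9.20 and -5.92 on the remaining 9. Whether fat, muscle or liver RNA gave these signals was not tested.

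**Figure D5:**
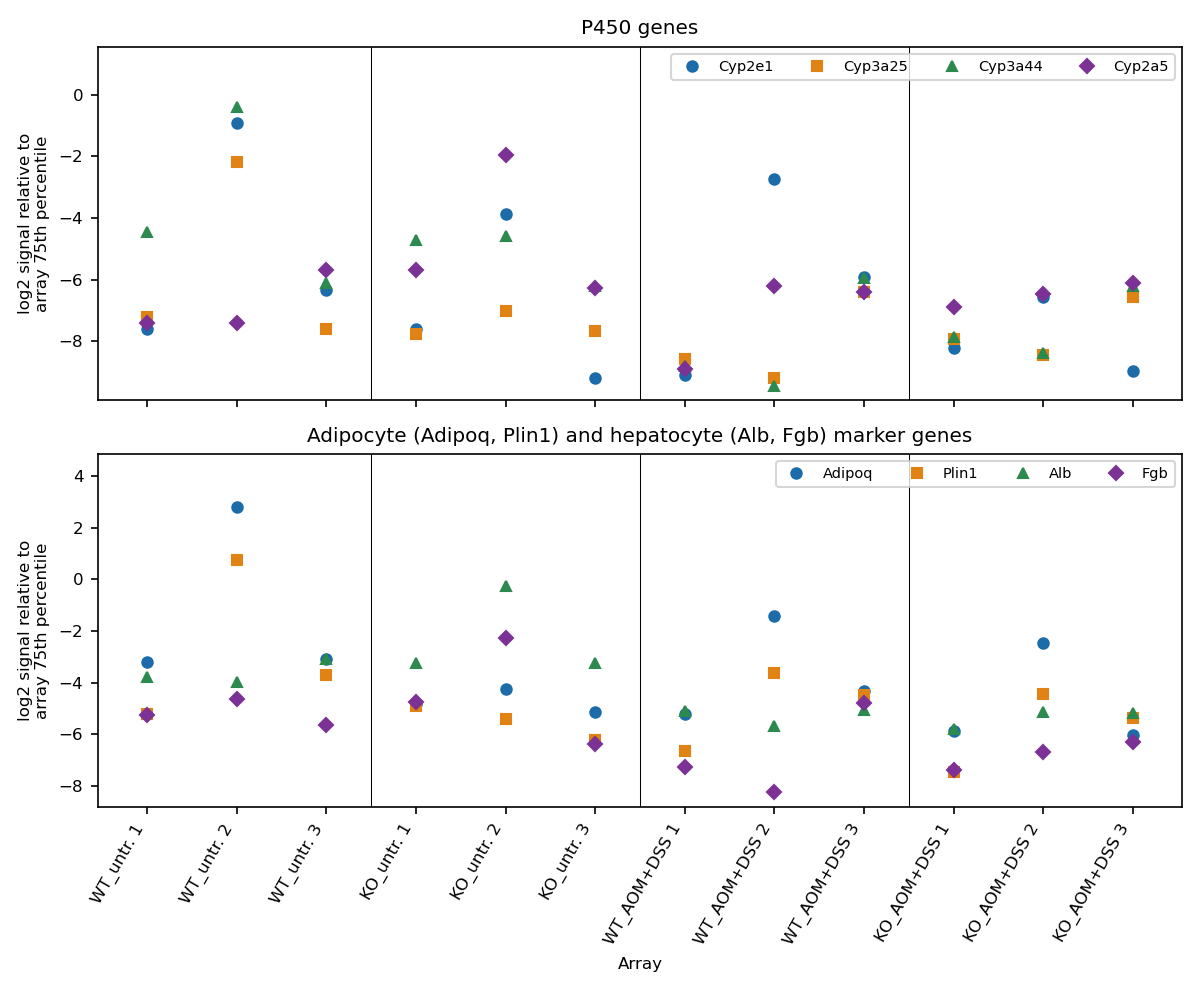
Log2 signal of 4 P450 genes (top) and of the adipocyte markers Adipoq and Plin1 and hepatocyte markers Alb and Fgb (bottom) on each of the 12 arrays. Cyp2e1, Cyp3a25 and Cyp3a44 peak on WT_untreated 2 together with Adipoq and Plin1, and Cyp2a5 peaks on KO_untreated 2 together with Alb and Fgb.

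No P450 gene was called between marrows. In treated mice, in untreated mice and for the difference between marrows in the treatment effect, 0 of 57 P450 genes passed limma's adjusted threshold, against 0% of all genes. Unadjusted p-values below 0.05 were found for 1, 10 and 2 P450 genes, where 0.973%, 12.3% and 3.49% of all genes had them, and the lowest adjusted p-values were 1.00, 0.404 and 0.897. Cyp2c55 had the smallest unadjusted p in treated mice, where KO minus WT was 2.42 ± 0.40 (95% interval 1.54 to 3.31, adjusted p 1.00), but this rested on the single KO_AOMDSS 3 value and was 1.83 under the slide block. With the marked spots kept it was 1.47. It was the 1 P450 gene of 57 whose treated groups did not overlap, against 3.72% of all genes, and with the marked spots kept they did overlap. Its difference between marrows in the treatment effect was 2.08 ± 0.49 (adjusted p 0.897). In untreated mice Cyp2c29 was 1.06 ± 0.40 higher with KO marrow (95% interval 0.21 to 1.92, adjusted p 0.404), with WT_untreated 1 and 2 below all KO_untreated mice and WT_untreated 3 level with the lowest. Cyp2c40 was 0.89 ± 0.41 higher (95% interval 0.01 to 1.77, adjusted p 0.405). The untreated groups did not overlap for 4 of the 57 P450 genes (Cyp26a1, Cyp2b9, Cyp2b10 and Cyp2a4, at -2.76 to -1.60), a smaller share than the 12.7% of all genes. Of these, Cyp2b9 and Cyp2b10 passed the background filter through WT_untreated alone, where they were high. The intervals were wide, that of Cyp2b9 running from -5.27 to -0.25, and the number of arrays limits what could be detected. Without KO_untreated 1, the KO marrow array on slide 1, 3 P450 genes were called in untreated mice, all lower. No all-gene share is given for that fit, so the count is not read as a result about P450 genes. With array weights 33 P450 genes were called in untreated mice and 16 for the difference in the treatment effect, where 44.4% and 27.3% of all genes were. The weight was 0.257 for KO_untreated 1 and 3.09 and 2.60 for KO_untreated 2 and 3, which were on slide 2. All WT_untreated arrays were on slide 1, where KO_untreated 1 was the only KO marrow array. Without it, marrow and slide cannot be told apart in untreated mice, and with its low weight they are largely tied. With slide as a block, 0 P450 genes were called between marrows in untreated mice, against 0% of all genes.

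Enzymes and receptors that work with P450s are given here beside the all-gene shares of the averaged comparison, in which 13.5% of genes fell and 7.55% rose. Por, which hands electrons to nearly all P450s of the endoplasmic reticulum, was at 5.82, 5.52 and 5.32, then 6.01, 5.37 and 5.67 in untreated mice and at 4.65, 4.70 and 4.30, then 4.93, 4.43 and 4.77 in treated ones. The groups did not overlap, and it fell by 0.99 ± 0.17 (adjusted p 0.0025, or 0.146 under the slide block). Of the 10 tested redox partners 5 fell and 2 rose, though 1 of the falls, that of Cyb5r2 (2.05 ± 0.62), became a difference of 1.00 under the slide block. The risers were Cyb5r1, a cytochrome b5 reductase, and the haem oxygenase Hmox1 (1.20 ± 0.24, adjusted p 0.0062). Both called epoxide hydrolases of 4 fell, Ephx1 by 1.33 ± 0.25 and Ephx2 by 0.85 ± 0.20, the enzymes that open the epoxides P450s make. Among 22 nuclear receptors and sensors that govern P450 genes, 5 fell and 1 rose, a count near the 21% of all genes called. Ppara fell by 1.55 ± 0.24, Vdr by 1.14 ± 0.20, Nr5a2 by 1.91 ± 0.34, Rarg by 1.62 ± 0.42 and Hnf4a by 0.49 ± 0.15 (its spot on WT_AOMDSS 1 was left out as an outlier), and Ahrr, the repressor of the aryl hydrocarbon receptor, rose by 1.15 ± 0.38. Under the slide block Rarg was at 0.09, and of these 6 Ahrr alone kept its call (2.22, adjusted p 0.046).

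Partners of the specialised P450s and marker lists are read against the same shares, 13.5% of all genes lower and 7.55% higher. Of 12 tested retinoid genes 4 rose and 3 fell, with Aldh1a3, a retinoic acid synthase, 6.59 ± 0.59 higher and Rbp2, the retinol carrier of the gut epithelium, 3.03 ± 0.29 lower, both also called under the slide block. Of 13 steroid genes 5 fell and 1 rose, with Hsd3b3 at -1.38 ± 0.30. Of the 4 factors that bind D-box sites, 2 fell: the clock output factors Dbp by 5.91 ± 0.34 and Tef by 4.05 ± 0.41. Neither tested P450 named outside the rule (Cyp51 and Tbxas1) was called. Marker genes of several cell types moved with treatment. Of the marker lists, 5 of 12 colonocyte and 3 of 4 hepatocyte genes fell. In contrast, 5 of 5 neutrophil, 4 of 5 macrophage and 5 of 6 fibroblast genes rose. Such shifts in marker RNA do not separate cell numbers from RNA per cell. The mean log2 signal of the colonocyte list ran from 6.91 to 7.31 in untreated and from 5.94 to 6.70 in treated mice, and that of the neutrophil list from -6.41 to -4.49 and from -1.54 to 1.43. The part of these shifts in the P450 falls was not tested.

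The authors' deposited table of 2506 probes, each with a log2 mean for each of the 4 groups, holds 19 P450 probes of 17 genes. Of these 18 were lower in treated mice with either marrow, and the exception was Cyp7b1, with a difference of 3.29 with WT and 3.17 with KO marrow in the authors' deposited table. Among its probes as a whole, 49.2% were lower with treatment with WT marrow. For the same probes the differences between the authors' deposited means and those computed here were at most 0.023. The table includes Cyp2a12, at -1.51 and -1.33 with WT and KO marrow by the authors' deposited values, although its probe was not well above background on any of the 12 arrays. It does not include Cyp2c55, whose fall with WT marrow is given above.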

How the data were processed

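Labelled RNA of 12 mice was hybridised to single-colour Agilent arrays, and the scanner software was, per the file headers, Feature Extraction, version 10.7.3.1. The deposited scanner files hold intensity values, of which the background-corrected signal was used. The authors' deposited table of group means holds log2 values that match group means minus each probe's median, its scaling being unstated. Here log2 of the signal minus each array's 75th percentile was taken, with no pseudocount, outlier-marked spots were left out and spots of a probe averaged. Of 41174 probes 24375 got a symbol through their accession (RefSeq, GRCm38.p6). The array headers name an older build, so no array coordinates are given. A probe entered the test when well above background on all 3 arrays of a group (30219 probes), and a gene took its brightest probe.

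Groups were compared with limma 3.58.1 (lmFit, eBayes, 8 residual degrees of freedom) in R 4.3.3 with data.table (1.17.8), adjusted by Benjamini-Hochberg over 23747 genes, and the code was tested on simulated data. Python 3.11.15, pandas 2.3.3 and matplotlib 3.10.9 made tables and figures. p-values measure the spread between mice. Alternatives were quantile normalization, normexp background (offset 50, on median signals), no filter, mean of probes, slide or replicate number as a block, array weights, each array left out, and within-slide values. Keeping outlier spots, leaving out both marker-high arrays and using slide 2 alone were added after seeing the data. Genes named are those called in any comparison, those of the steroid, sterol, vitamin D, retinoic acid and Cyp1 roles, and those in the authors' table, and others were named after their values were seen. The members, lists and motifs were chosen with earlier results of these data known.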

Additional observations from a re-analysis of the deposited data

How the results depend on the processing

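With slide as a block 1 P450 gene was called with WT marrow, 15 with KO marrow and 12 averaged, against 19, 8 and 28 without it, and these differences took the opposite sign: averaged, Cyp27b1 0.81, Cyp2b13 0.35, Cyp2b19 0.71, Cyp2c54 0.15 and Cyp4f39 0.70, and with WT marrow, Cyp27b1 0.67, Cyp2b13 0.33, Cyp2b19 0.63 and Cyp2c37 0.22. With array weights, which ran from 0.136 to 3.09, 43, 23 and 44 genes were called, with 33 between marrows in untreated mice and 16 for the difference between marrows in the treatment effect, against 0 for both without them, while 50.8%, 19.2%, 52.6%, 44.4% and 27.3% of all genes were called with them. Without both marker-high arrays 5, 4 and 15 were called. Leaving out each array gave 7 to 33, 4 to 14 and 18 to 37 calls for the treatment effects, and 0 to 3 between marrows in untreated mice. Replicate numbers did not pair the samples (median correlation of same-numbered deviations -0.12 over 18 pairs), and with the replicate block 12, 6 and 24 genes were called. The averaged count was 26 with quantile normalization, 25 with normexp correction and 27 without a filter. Among the alternative fits, all-gene shares are given only for the slide block and array weights, so the other counts describe only how the P450 calls varied. The causes were not tested, and marrow and slide are largely tied in untreated mice. Dim signals limit Cyp7b1, Cyp2b9, Cyp2c54 and Cyp11b2.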
